A study of Homo sapiens with 24 samples.

Results

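Aldehyde dehydrogenases (ALDHs) outside the ALDH1 family were followed in sorted cells of 2 cancer cell lines. The set was fixed by name as ALDH2, ALDH3A1, ALDH3A2, ALDH3B1, ALDH4A1, ALDH5A1, ALDH6A1, ALDH7A1, ALDH9A1 and ALDH18A1, and all 10 symbols were found among the 28307 genes of the count file. ALDH3B2, ALDH8A1 and ALDH16A1, which also lie outside the ALDH1 family, were read as context only. The cells were SUM159, a mesenchymal-like breast cancer line, and SW620, a colon cancer line, each standing for its tumor type alone. They were cultured for 30 h with nifuroxazide (NIF), a nitrofuran antibiotic, or with its solvent DMSO as control. The Aldefluor probe was used to sort ALDHbr cells of high ALDH activity and ALDHneg cells of low activity. The study takes the ALDHbr population as enriched in cancer stem cells (CSCs). Its methods for RNA sequencing do not fix whether the sort came before or after treatment. Each of the 8 groups (SUM159 or SW620, ALDHbr or ALDHneg, NIF or DMSO) held 3 libraries from independent experiments, which makes 24 libraries of stranded total RNA. The study lists its NIF concentrations by cell line in a supplement that was not used here, so no concentration is given.

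Most ALDH enzymes oxidize aldehydes to carboxylic acids with NAD+ or NADP+, whereas the member ALDH18A1 acts on glutamate. The Aldefluor sort reads the combined activity of several of them and is commonly attributed to ALDH1A isoforms. The other families mostly have dedicated metabolic tasks. ALDH2 is the mitochondrial enzyme that clears acetaldehyde, the class 3 enzymes handle medium- and long-chain and lipid-derived aldehydes, and the remaining members serve the metabolism of proline, GABA, valine, lysine, choline, carnitine and polyamines.

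The total count per library ran from 30253187 to 43127948 (median 36520935). Marker genes fitted the line labels, with the summed level of 10 colon epithelial markers at 2209 to 2799 CPM (counts scaled to a common library size) in the 12 SW620 libraries and 0.197 to 8.92 CPM in the 12 SUM159 libraries, and that of 10 mesenchymal markers at 859 to 1205 and 10550.1 to 13662 CPM, respectively. ALDH1A1, the retinaldehyde dehydrogenase most often linked to the sort, stood at 128 ± 27.1 CPM (SD, n = 3) under DMSO in the ALDHbr and 0.451 ± 0.0606 CPM in the ALDHneg population of SUM159, and at 1384 ± 45.4 and 955 ± 21.0 CPM in SW620. CPM values here are scaled by the trimmed mean of M values (TMM) over all 24 libraries.

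The summed level of the 10 genes under DMSO was 372 ± 9.82 CPM (SD, n = 3) in the ALDHbr and 358 ± 10.6 CPM in the ALDHneg population of SUM159. The corresponding sums of SW620 were 1115 ± 43.0 and 1027 ± 14.3 CPM. Under NIF the sum was 377 ± 11.1 and 359 ± 16.1 CPM in SUM159, and 1082 ± 25.9 and 958 ± 18.5 CPM in SW620.

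**Figure D1:**
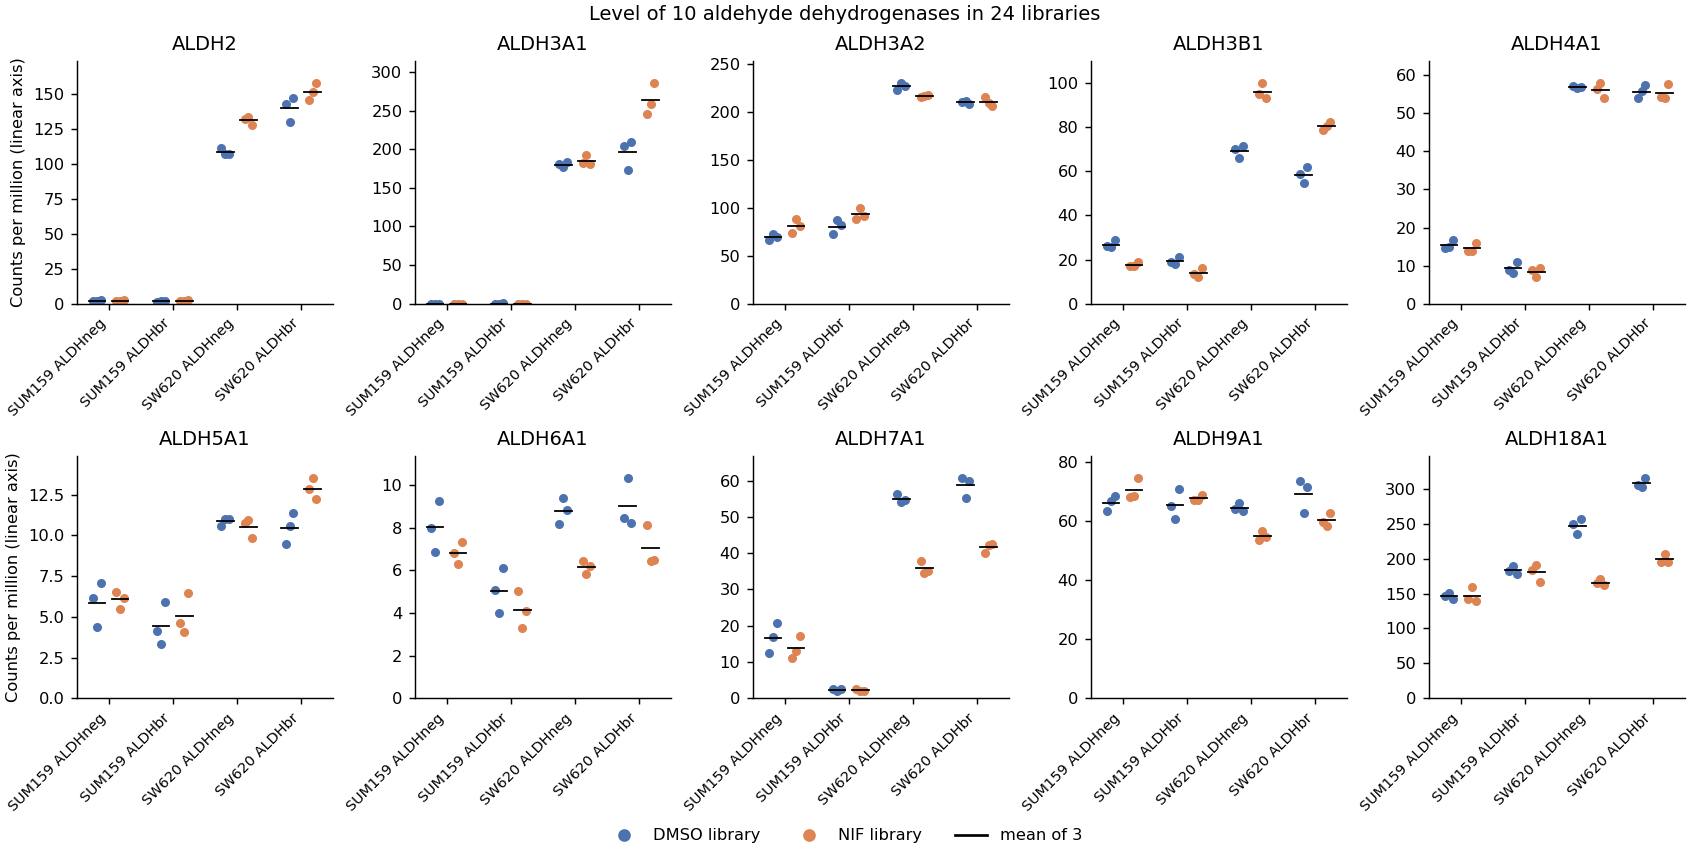
Level of each of the 10 aldehyde dehydrogenases, in CPM on a linear axis from 0, by cell line and sorted population. Each point is a library (blue, DMSO; orange, NIF) and each bar the mean of 3; ALDH2 and ALDH3A1 lie near 0 in all 12 SUM159 libraries, and the ALDHbr points of ALDH7A1 in SUM159 lie below its ALDHneg points.

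Per length, that is in CPM per kb of the MANE Select transcript, ALDH18A1 had the highest level of the 10 in SUM159, at 54.7 ± 1.76 in ALDHbr and 43.7 ± 1.40 in ALDHneg cells under DMSO. It was followed there by ALDH9A1 (27.4 ± 2.17 and 27.7 ± 1.11), ALDH3A2 (21.7 ± 2.04 and 18.8 ± 0.825), ALDH3B1 (6.92 ± 0.532 and 9.54 ± 0.644) and ALDH4A1 (2.98 ± 0.485 and 4.88 ± 0.377). Neighbours in that upper part of the order did not overlap between libraries, whereas ALDH6A1 and ALDH5A1 overlapped in both populations. ALDH2 and ALDH3A1 were last, at 0.184 ± 0.0546 and 0.136 ± 0.236 CPM per kb in ALDHbr cells, where they overlapped.

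In SW620 the order per length began with ALDH3A1, at 119 ± 11.8 CPM per kb in ALDHbr and 109.8 ± 2.08 in ALDHneg cells under DMSO. ALDH18A1 came next, at 91.7 ± 2.09 and 73.7 ± 3.23 CPM per kb, and then ALDH3A2, at 56.8 ± 0.555 and 61.3 ± 0.911. ALDH9A1, ALDH3B1, ALDH4A1, ALDH2 and ALDH7A1 lay between 11.3 and 29.0 CPM per kb, with ALDH7A1 and ALDH2 overlapping in ALDHneg cells only. ALDH5A1 and ALDH6A1 closed the order at 2.04 ± 0.189 and 1.65 ± 0.211 CPM per kb in ALDHbr cells, where they overlapped. The order depends on the length used. The union of all exons was an alternative added after the data were seen. With it, under DMSO, ALDH18A1 ranked 1 and ALDH3A1 ranked 2 in SW620, and ALDH3A2 moved to rank 6 in ALDHbr and rank 5 in ALDHneg cells. In SUM159 under DMSO it put ALDH4A1 above ALDH3B1 and ALDH6A1 above ALDH7A1 in ALDHneg cells, and ALDH2 above ALDH7A1 in ALDHbr cells.

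**Figure D2:**
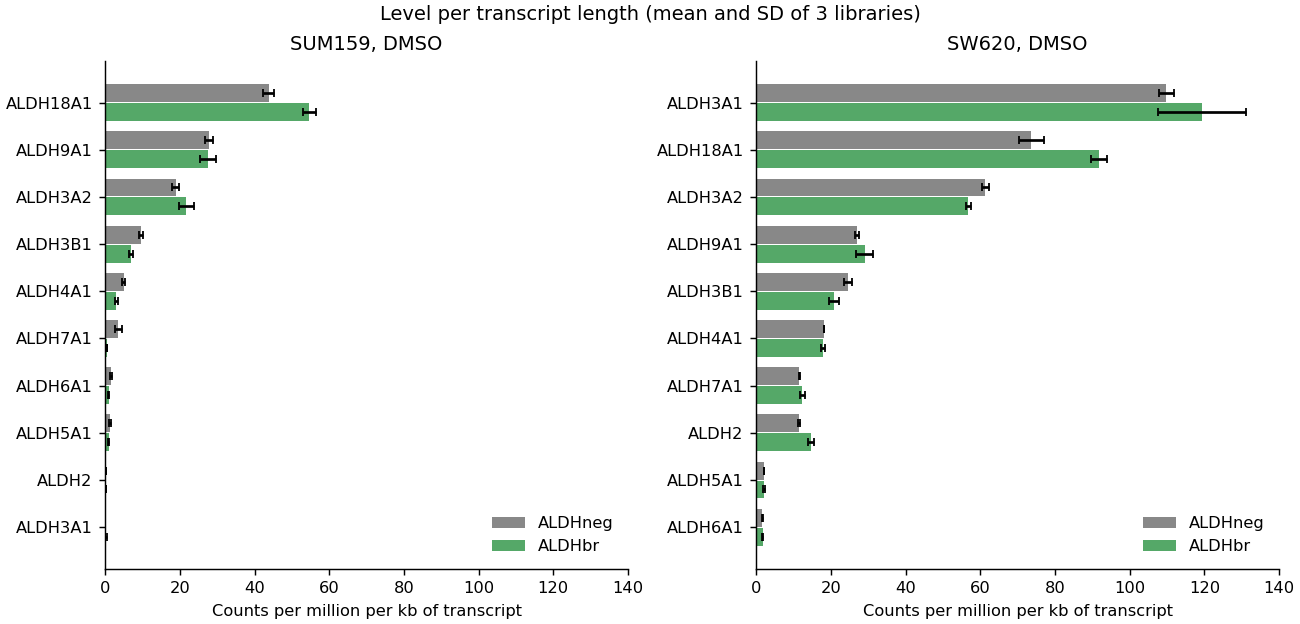
Level under DMSO in CPM per kb of transcript, as mean and SD of 3 libraries, with ALDHneg in grey and ALDHbr in green. ALDH18A1 leads in SUM159 and ALDH3A1 in SW620, where ALDH2 and ALDH3A1 are well above their SUM159 levels.

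NIF against DMSO asks how transcripts of these enzymes changed after treatment in each sorted population. In SW620 ALDHbr cells 7 of the 10 genes tested changed, 3 higher (ALDH3A1, ALDH3B1 and ALDH5A1) and 4 lower (ALDH6A1, ALDH7A1, ALDH9A1 and ALDH18A1), against 43.3% of all 13953 genes tested there. In SW620 ALDHneg cells 6 of 10 changed, ALDH2 and ALDH3B1 higher and the same 4 genes lower, against 45.1% of all genes. Without ALDHbr NIF replicate 2 the ALDHbr count was 4. Whether the members' share differs from that of all genes was not tested. ALDH4A1 and ALDH3A2 passed in neither population. Calls are edgeR quasi-likelihood tests whose Benjamini-Hochberg adjusted p was under 0.05, and in sorted bulk RNA fewer cells of a kind and less RNA per cell cannot be told apart.

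The 4 genes that fell in both SW620 populations are shown by the 150 bases before their RefSeq start site (GRCh38.p14, each 5′ to 3′ on the gene's own strand, all of them minus). They were chosen by these calls, and 3051 of 13953 genes fell in the ALDHbr and 3172 in the ALDHneg cells of this line. Whether the windows bear on the falls was not tested. Capitals mark CCAAT and GGGCGG on either strand, which may lie next to or within one another's runs. Of 35116 promoter windows of the same length, 23.5% hold CCAAT and 36.8% hold GGGCGG. The windows are chr10:95656712-95656861 for ALDH18A1, chr5:126595220-126595369 for ALDH7A1, chr14:74084454-74084603 for ALDH6A1 and chr1:165698563-165698712 for ALDH9A1.
ALDH18A1: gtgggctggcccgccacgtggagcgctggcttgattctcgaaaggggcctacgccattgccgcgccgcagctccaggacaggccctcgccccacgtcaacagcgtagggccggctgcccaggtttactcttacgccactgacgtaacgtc
ALDH7A1: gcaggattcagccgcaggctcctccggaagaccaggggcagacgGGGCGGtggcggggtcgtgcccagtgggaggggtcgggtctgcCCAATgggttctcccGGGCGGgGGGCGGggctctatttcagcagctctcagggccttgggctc
ALDH6A1: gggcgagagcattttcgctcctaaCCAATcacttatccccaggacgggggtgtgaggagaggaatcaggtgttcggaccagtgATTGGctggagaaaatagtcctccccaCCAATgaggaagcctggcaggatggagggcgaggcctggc
ALDH9A1: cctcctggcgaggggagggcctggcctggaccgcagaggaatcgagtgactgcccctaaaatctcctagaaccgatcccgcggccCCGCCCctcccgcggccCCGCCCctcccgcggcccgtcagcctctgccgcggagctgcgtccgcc
ALDH6A1 held 3 CCAAT matches and no GGGCGG, ALDH9A1 2 GGGCGG and no CCAAT, ALDH7A1 1 CCAAT and 3 GGGCGG, and ALDH18A1 neither. The letters GCGTG (in 23.5% of all windows), TGACNNNGC (7.29%) and TGATGNAAN (1.89%), core letters of dioxin, antioxidant and amino acid response elements, were found in none of the 4 windows on either strand. These matches describe the letters only. The promoter table held 8 of the 10 members, without ALDH2 and ALDH3A1.

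ALDH18A1 (chr10:95605941-95656711), the mitochondrial enzyme that turns glutamate into pyrroline-5-carboxylate on the way to proline and ornithine, had the deepest fall in SW620 ALDHbr cells. Its level was 305, 302 and 315 CPM under DMSO and 196, 206 and 195 CPM under NIF in ALDHbr cells. In ALDHneg cells it was 249.1, 235 and 257 CPM under DMSO and 164, 170.2 and 162 CPM under NIF. All 6 NIF libraries lay below all 6 DMSO libraries. The log2 fold change was -0.65 (SE 0.0499, adjusted p = 1.82e-07) in ALDHbr and -0.59 (SE 0.0499, adjusted p = 3.62e-07) in ALDHneg cells by edgeR's quasi-likelihood test.

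ALDH7A1 (chr5:126541841-126595219), which oxidizes the semialdehyde of lysine breakdown and betaine aldehyde, fell as well. It stood at 60.7, 55.2 and 60.0 CPM under DMSO against 40.2, 42.1 and 42.4 CPM under NIF in SW620 ALDHbr cells. In ALDHneg cells the values were 56.3, 54.0 and 54.7 CPM against 37.8, 34.6 and 35.1 CPM. Groups did not overlap in either population, and the log2 fold changes were -0.52 (SE 0.0588, adjusted p = 8.00e-06) and -0.63 (SE 0.0589, adjusted p = 9.34e-07) by the same edgeR test.

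ALDH6A1 (chr14:74056847-74084453), the methylmalonate-semialdehyde dehydrogenase of valine breakdown, was low in SW620 and fell under NIF. ALDHbr libraries held 8.46, 10.3 and 8.22 CPM under DMSO and 8.14, 6.44 and 6.49 CPM under NIF. ALDHneg libraries held 8.15, 9.41 and 8.84 CPM under DMSO and 6.44, 5.82 and 6.22 CPM under NIF. The groups were apart in both populations, though in ALDHbr cells the NIF replicate 1 library lay just under the lowest DMSO library. The log2 fold change was -0.37 (SE 0.114, adjusted p = 0.0176, edgeR) in ALDHbr and -0.53 (SE 0.114, adjusted p = 0.00170) in ALDHneg cells. The ALDHbr call was lost in 5 of 14 alternatives, among them without NIF replicate 2 (-0.31), NIF replicate 3 (-0.31) or DMSO replicate 2 (-0.25). ALDH6A1 overlaps BBOF1, and ALDH5A1 overlaps GPLD1. Both neighbours are in the count file, and how shared reads were counted is not given in the sources used here.

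ALDH9A1 (chr1:165662216-165698562), which acts on the aldehydes of carnitine and polyamine metabolism, changed least of the 4. In SW620 ALDHbr cells it was 73.6, 62.8 and 71.7 CPM under DMSO and 59.9, 58.3 and 62.9 CPM under NIF, with the NIF replicate 3 library just above DMSO replicate 2. In ALDHneg cells 64.2, 66.2 and 63.4 CPM stood against 53.8, 56.6 and 54.8 CPM, without overlap. The log2 fold changes were -0.22 (SE 0.0647, adjusted p = 0.0134) and -0.24 (SE 0.0647, adjusted p = 0.00691) by edgeR. The ALDHbr call was lost in 4 of 14 alternatives, including those without NIF replicate 2 (-0.19), DMSO replicate 1 (-0.18) or DMSO replicate 3 (-0.19).

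ALDH3B1 (chr11:68008547-68029276), a membrane-bound enzyme acting on lipid-derived aldehydes, was the member that changed in all 4 comparisons of NIF with DMSO. In SW620 it was higher under NIF. ALDHbr libraries gave 58.6, 54.5 and 61.9 CPM under DMSO and 78.6, 80.4 and 82.5 CPM under NIF. ALDHneg libraries gave 69.9, 65.8 and 71.2 CPM under DMSO and 95.1, 99.9 and 93.2 CPM under NIF. No NIF library of a population fell within the range of its DMSO libraries, and the log2 fold changes were 0.44 (SE 0.0603, adjusted p = 4.28e-05) and 0.46 (SE 0.0598, adjusted p = 2.23e-05) by edgeR.

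In SUM159 ALDH3B1 was lower under NIF, and it was the only member to pass the test in this line without a replicate block. ALDHbr libraries held 19.1, 18.1 and 21.1 CPM under DMSO and 13.4, 11.9 and 16.1 CPM under NIF. ALDHneg libraries held 26.0, 25.5 and 28.9 CPM under DMSO and 17.2, 17.2 and 18.8 CPM under NIF. The groups did not overlap, and the log2 fold changes were -0.49 (SE 0.10, adjusted p = 0.0141) and -0.59 (SE 0.0979, adjusted p = 0.00366) by edgeR. The ALDHbr call was lost when any of 4 libraries was left out, NIF replicate 1 (-0.47), NIF replicate 2 (-0.39), DMSO replicate 1 (-0.50) or DMSO replicate 3 (-0.44). ALDH3B1 shares much of its sequence with ALDH3B2, which stayed at or under 1.06 CPM in all libraries.

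The difference between the lines in the ALDH3B1 response was itself tested in a fit of all 24 libraries. It was 0.93 (SE 0.116, adjusted p = 2.29e-06) on the log2 scale in ALDHbr cells and 1.07 (SE 0.114, adjusted p = 1.93e-07) in ALDHneg cells, SW620 minus SUM159. For ALDH18A1 the difference was -0.63 (SE 0.0884, adjusted p = 1.21e-05) and -0.59 (SE 0.0886, adjusted p = 2.45e-05). In SUM159 ALDH18A1 had 183, 189.6 and 178 CPM under DMSO and 183, 191 and 166 CPM under NIF in ALDHbr cells, with overlapping groups and a log2 fold change of -0.02 (SE 0.0694, adjusted p = 0.919, edgeR).

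In all, 4 of the 10 genes passed the test for a different response of the lines in ALDHbr cells, against 23.1% of 16271 genes tested. In ALDHneg cells 4 of 10 passed, against 22.4%. The ALDHbr count includes ALDH3A1, which was too low in SUM159 for a response to be measured there. Whether these shares differ from those of all genes was not tested. ALDH9A1 differed in both, by -0.27 (adjusted p = 0.0319) and -0.33 (adjusted p = 0.0102) on the log2 scale. In SUM159 it was 65.2, 60.7 and 71.1 CPM under DMSO and 67.3, 67.2 and 69.0 CPM under NIF in ALDHbr cells. The ALDHbr call of ALDH9A1 was lost without any of its 12 libraries except SUM159 DMSO replicate 3, SW620 DMSO replicate 2 and SW620 NIF replicate 3 (-0.27 to -0.23). ALDH3A2 differed in ALDHneg cells, by -0.30 (SE 0.0972, adjusted p = 0.0290, edgeR), a call lost without SUM159 DMSO replicate 1 (-0.26), SUM159 NIF replicate 2 (-0.22), SW620 DMSO replicate 2 or 3 (-0.29) or any SW620 NIF library (-0.30 to -0.29). In ALDHbr cells ALDH3A2 gave -0.24 (SE 0.0971, adjusted p = 0.0841), and it passed there with a replicate block (adjusted p = 0.00752). The remaining call was ALDH3A1 in ALDHbr cells, which rests on a single SUM159 library described further on. ALDH6A1 and ALDH7A1, which fell in SW620, were not shown to differ from SUM159 in this response, with differences of -0.09 (SE 0.214) and -0.48 (SE 0.240) in ALDHbr cells.

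**Figure D3:**
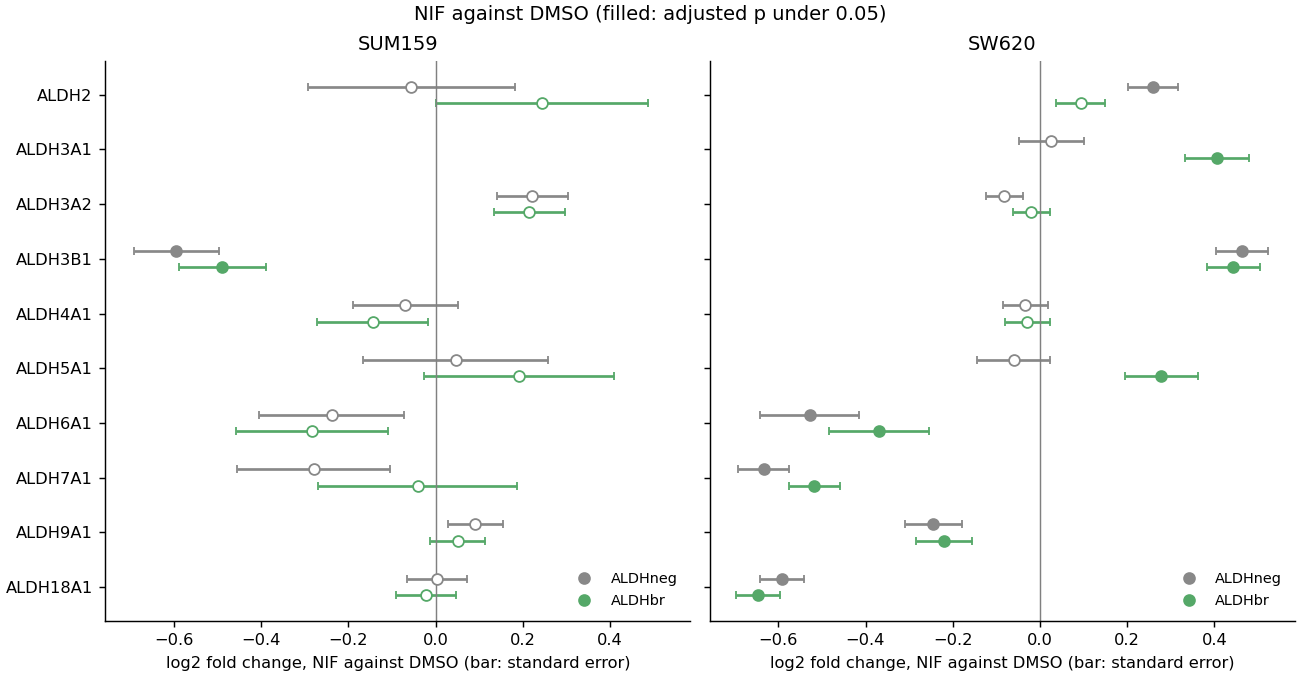
Log2 fold change of NIF against DMSO with its standard error, for ALDHneg (grey) and ALDHbr (green) cells of each line; filled points have an adjusted p under 0.05. ALDH3B1 lies at -0.59 and -0.49 in SUM159 and at 0.46 and 0.44 in SW620, and ALDH3A1 was not tested in SUM159.

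ALDH3A1 (chr17:19737984-19748298), a class 3 enzyme of aromatic and medium-chain aldehydes, rose in SW620 ALDHbr cells. It was 204, 174 and 209 CPM under DMSO and 246, 258 and 285 CPM under NIF there, without overlap. In ALDHneg cells 181, 176 and 183 CPM under DMSO stood against 182, 193 and 181 CPM under NIF, which overlapped. The log2 fold change was 0.41 (SE 0.0738, adjusted p = 0.000516, edgeR) in ALDHbr and 0.03 (SE 0.0738, adjusted p = 0.801) in ALDHneg cells. The difference between the populations, tested as an interaction, was 0.38 (SE 0.104) with an adjusted p of 0.550 over all genes and an unadjusted p of 0.00277.

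In SUM159 ALDH3A1 had no count in 9 of 12 libraries. The others held 26 counts (ALDHbr, DMSO, replicate 3), 3 counts (ALDHneg, NIF, replicate 1) and 1 count (ALDHneg, DMSO, replicate 2). The gene was therefore not tested within SUM159, and no fold against SUM159 is given. The library with 26 counts also held 347 counts on the 10 colon epithelial markers, against 8 to 111 in the other 11 SUM159 libraries. Of these markers KRT20, a keratin of the gut lining, had 75 counts there and at most 1 elsewhere in SUM159. The markers of that library came to 0.357% of their mean SW620 level and ALDH3A1 to 0.324% of its own, and their part in the ALDH3A1 counts was not tested.

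ALDH3A2 (chr17:19648136-19677596), the fatty aldehyde dehydrogenase of the endoplasmic reticulum, did not pass the test in SW620 under NIF, where the log2 fold change was -0.02 (SE 0.0420) in ALDHbr and -0.08 (SE 0.0419) in ALDHneg cells. In SUM159 it was 72.4, 87.3 and 81.8 CPM under DMSO and 88.5, 99.996 and 91.1 CPM under NIF in ALDHbr cells. ALDHneg cells had 66.5, 72.6 and 69.9 CPM under DMSO and 74.4, 88.2 and 80.9 CPM under NIF. NIF libraries were the higher ones in both populations, without overlap, and the log2 fold change was 0.22 in both (SE 0.0822 and 0.0825, adjusted p = 0.188 and 0.175, edgeR). Libraries of SUM159 with equal replicate numbers deviated together, and in a fit with a replicate block ALDH3A2 passed the test in both populations (0.22, adjusted p = 0.00327 and 0.22, adjusted p = 0.00317).

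In SUM159, then, 1 of 9 members tested changed under NIF in ALDHbr cells, against 3.16% of 14953 genes, and 1 of 9 in ALDHneg cells, against 3.30%. With the replicate block the count was 2 of 9 in each population, ALDH3B1 lower and ALDH3A2 higher. The shares of all genes given here are those of the fit without the block, so they are no background for that count. The median log2 fold change of the members tested was -0.02 in ALDHbr and -0.06 in ALDHneg cells, beside -0.00289 and 0.00333 over all genes tested.

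ALDH2 (chr12:111766933-111817532) differed most between the lines after ALDH3A1, and it rose under NIF in SW620 ALDHneg cells. Its level there was 111, 107 and 107 CPM under DMSO and 132, 133 and 128 CPM under NIF, without overlap (log2 fold change 0.26, SE 0.0569, adjusted p = 0.00196, edgeR). In SW620 ALDHbr cells 143, 129.9 and 147 CPM under DMSO overlapped with 146, 151 and 157 CPM under NIF (0.09, SE 0.0567, adjusted p = 0.204). SUM159 libraries held 1.24 to 2.63 CPM of ALDH2 in all 4 groups, on 43 to 113 counts each.

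ALDH5A1 (chr6:24494969-24537207), the succinate-semialdehyde dehydrogenase of the GABA shunt, was 9.45, 10.6 and 11.4 CPM under DMSO and 12.8, 13.5 and 12.2 CPM under NIF in SW620 ALDHbr cells. These groups did not overlap, and the log2 fold change was 0.28 (SE 0.0838, adjusted p = 0.0153, edgeR), a call lost in 4 of 14 alternatives, including those without NIF replicate 2 (0.24) or DMSO replicate 1 (0.21). In ALDHneg cells it was 10.6, 11.0 and 11.0 CPM against 10.8, 10.9 and 9.83 CPM, with a log2 fold change of -0.06 (SE 0.0837). ALDH4A1 (chr1:18871430-18902555), which oxidizes the pyrroline-5-carboxylate made from proline and so works against the direction of ALDH18A1, passed in neither SW620 population, with 53.9 to 57.9 CPM in all 12 libraries and log2 fold changes of -0.03 (SE 0.0520 and 0.0517) in both populations.

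The interaction of NIF with population asks whether ALDHbr and ALDHneg cells of a line responded differently. No member passed in either line by edgeR's quasi-likelihood test or by DESeq2. Over all genes 0% passed in SUM159 and 0.00717% in SW620. At an unadjusted p under 0.05 there were 0 members in SUM159 and 2 in SW620, namely ALDH3A1 (0.38) and ALDH5A1 (0.34, SE 0.118). The call of ALDH2 in ALDHneg cells alone is likewise not a shown difference, since its interaction was -0.17 (SE 0.0803, unadjusted p = 0.0586, edgeR).

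ALDHbr against ALDHneg asks which ALDH transcripts follow the sort. In SUM159 under DMSO 5 of 9 members tested differed, ALDH3B1, ALDH4A1, ALDH6A1 and ALDH7A1 lower and ALDH18A1 higher in ALDHbr cells, against 23.0% of all genes tested. Under NIF the same 5 genes passed in the same directions, against 21.9%. The comparisons of populations share libraries with those of NIF against DMSO, so they are not independent of them.

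Cell type markers also differed between the populations. In SUM159 under DMSO 4 of 10 mesenchymal markers were lower in ALDHbr cells (SPARC, FN1, AXL and COL5A1) and 1 was higher (MSN), and their summed level was 10550.1 to 12213 CPM in ALDHbr and 12115 to 13662 CPM in ALDHneg cells, which overlapped. In SW620 4 of 8 mesenchymal markers tested were lower in ALDHbr cells (FN1, CAV1, AXL and TGFBI) and 1 was higher (CD44), with sums of 859 to 1000.3 and 901 to 945 CPM, which overlapped. There 4 of 10 colon epithelial markers were higher in ALDHbr cells (CDX2, LGALS4, EPCAM and ELF3) and 0 lower, with sums of 2520 to 2628 and 2209 to 2259 CPM. Of the markers called in SW620, FN1 and CDX2 were low, with means of 0.477 and 1.81 CPM in ALDHbr cells under DMSO. SPARC and COL5A1 had 0 counts in the SW620 ALDHneg DMSO libraries, as CDX2, CDH17 and GPA33 had in the SUM159 ALDHneg DMSO libraries. Under NIF the counts of these calls were the same in both lines, with CDX2, VIL1, LGALS4 and KRT20 as the colon markers called. Over all genes 23.0% were called in SUM159 and 11.3% in SW620 under DMSO, and 21.9% and 6.67% under NIF. The part of the marker differences in those of the members was not tested.

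ALDH7A1 had the widest gap. In SUM159 ALDHbr cells it was 2.52, 1.97 and 2.47 CPM under DMSO, and in ALDHneg cells 12.5, 16.8 and 20.7 CPM. Under NIF the values were 2.46, 2.12 and 2.17 CPM in ALDHbr against 11.1, 12.9 and 17.2 CPM in ALDHneg cells. Every ALDHbr library lay far below every ALDHneg library, and the ALDHneg libraries spread more among themselves. The log2 fold change was -2.85 (SE 0.205, adjusted p = 1.18e-07), 7.19-fold lower, under DMSO and -2.61 (SE 0.204, adjusted p = 2.93e-07), 6.09-fold lower, under NIF, by edgeR. In SW620, by contrast, ALDH7A1 did not pass under DMSO (0.10, SE 0.0581, adjusted p = 0.231) and was slightly higher in ALDHbr cells under NIF (0.22, SE 0.0595, adjusted p = 0.0413), a call lost in 10 of 14 alternatives, among them without any single library of its 6 (0.19 to 0.26).

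ALDH4A1 was 8.97, 8.06 and 11.0 CPM in SUM159 ALDHbr and 14.5, 14.8 and 16.7 CPM in ALDHneg cells under DMSO, without overlap. Its log2 fold change was -0.71 (SE 0.125, adjusted p = 0.000675) under DMSO and -0.79 (SE 0.125, adjusted p = 0.000310) under NIF by edgeR. ALDH6A1 was 5.07, 4.00 and 6.09 CPM in ALDHbr and 7.99, 6.87 and 9.23 CPM in ALDHneg cells under DMSO, again without overlap (-0.67, SE 0.169, adjusted p = 0.00964). The ALDH6A1 call under DMSO was lost without ALDHbr DMSO replicate 2 (-0.53), and under NIF it was -0.71 (SE 0.172, adjusted p = 0.00729).

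ALDH3B1 was lower in ALDHbr cells of both lines. In SUM159 the log2 fold change was -0.47 (SE 0.0977, adjusted p = 0.00274) under DMSO and -0.36 (SE 0.10, adjusted p = 0.0172) under NIF, and in SW620 it was -0.23 (SE 0.0602, adjusted p = 0.0280) and -0.25 (SE 0.0597, adjusted p = 0.0220), by edgeR. ALDH18A1 was higher in ALDHbr cells of both lines. In SUM159 it was 146, 151 and 142 CPM in ALDHneg cells under DMSO, below all 3 ALDHbr libraries, with a log2 fold change of 0.32 (SE 0.0696, adjusted p = 0.00368), and of 0.29 (SE 0.0696, adjusted p = 0.00665) under NIF. In SW620 its log2 fold change was 0.33 (SE 0.0496, adjusted p = 0.000862) under DMSO and 0.27 (SE 0.0499, adjusted p = 0.00408) under NIF. Without ALDHbr NIF replicate 1 (-0.34), ALDHbr NIF replicate 2 (-0.26) or ALDHneg NIF replicate 3 (-0.31), the ALDH3B1 call in SUM159 under NIF was lost. The SW620 call under DMSO was lost without ALDHbr replicate 1 (-0.23), ALDHneg replicate 1 (-0.23) or ALDHneg replicate 3 (-0.22), and that under NIF without ALDHbr replicate 2 (-0.25) or ALDHneg replicate 1 (-0.26), 2 (-0.22) or 3 (-0.27).

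With the replicate block, 2 further genes passed between the SUM159 populations under DMSO, ALDH3A2 at 0.20 (adjusted p = 0.00187) and ALDH5A1 at -0.41 (adjusted p = 0.0183). Without the block they stood at 0.20 (SE 0.0826, adjusted p = 0.0914) and -0.41 (SE 0.217, adjusted p = 0.205). Under NIF ALDH3A2 passed with the block at 0.20 (adjusted p = 0.00183) and without it did not (adjusted p = 0.102). No share of all genes called is given for the fit with the block. ALDH9A1 gave -0.02 (SE 0.0630) under DMSO and -0.06 (SE 0.0628) under NIF between the SUM159 populations.

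In SW620 under DMSO 3 of 10 members differed between the populations, ALDH2 and ALDH18A1 higher and ALDH3B1 lower in ALDHbr cells, against 11.3% of all genes. ALDH2 had 143, 129.9 and 147 CPM in ALDHbr and 111, 107 and 107 CPM in ALDHneg cells, without overlap (0.38, SE 0.0569, adjusted p = 0.000779, edgeR). Under NIF 5 of 10 passed, against 6.67%, with ALDH3A1 (0.51, SE 0.0739, adjusted p = 0.000706) and ALDH7A1 added to those 3. ALDH2 was at 0.21 (SE 0.0568, adjusted p = 0.0386) there, and its call was lost in 8 of 14 alternatives, among them without any library but ALDHbr replicate 1 (0.19 to 0.23). This NIF count fell to 2 without ALDHbr replicate 2 or any single ALDHneg library, to 3 without ALDHbr replicate 3, and the DMSO count rose to 5 without ALDHbr replicate 2.

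**Figure D4:**
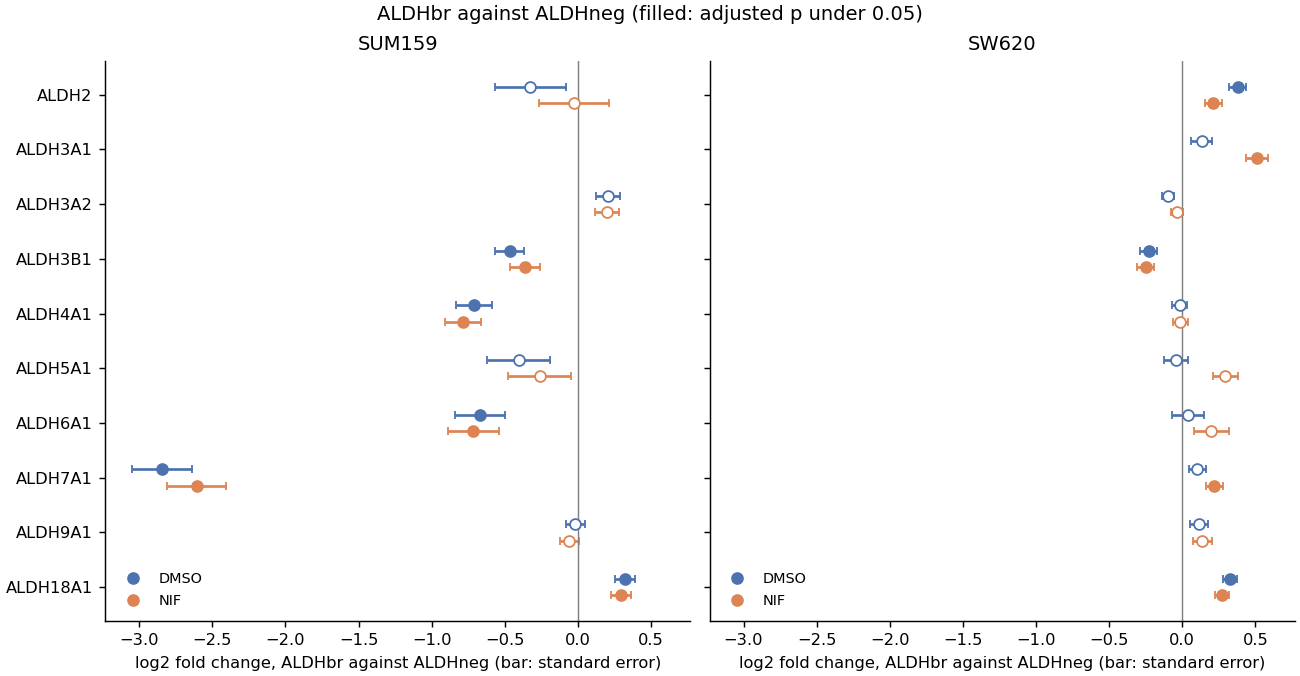
Log2 fold change of ALDHbr against ALDHneg cells with its standard error, under DMSO (blue) and NIF (orange); filled points have an adjusted p under 0.05. ALDH7A1 lies at -2.85 and -2.61 in SUM159 and near 0 in SW620, and ALDH18A1 is above 0 in both lines.

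Whether the lines differ in this contrast was tested in a comparison added after the values were seen, so it is a description of a pattern already noticed. Under DMSO 6 of 10 members passed, against 19.1% of 16271 genes. ALDH7A1 gave 2.95 (SE 0.210, adjusted p = 3.45e-10), ALDH6A1 0.71 (SE 0.206, adjusted p = 0.0177), ALDH2 0.70 (SE 0.20, adjusted p = 0.0157), ALDH4A1 0.69 (SE 0.13, adjusted p = 0.000470) and ALDH3A2 -0.30 (SE 0.0973, adjusted p = 0.0302), SW620 minus SUM159 on the log2 scale by edgeR. ALDH3A1 was the 6th, on the counts of the SUM159 library named above. Without that library it turned to 1.94 (adjusted p = 0.576, edgeR), so its call shows no difference. Whether the members' share differs from that of all genes was not tested. Without SUM159 ALDHneg DMSO replicate 3 only 3 passed, since ALDH2 (0.53) and ALDH6A1 (0.58) were lost along with ALDH3A1. ALDH2 was lost as well without SUM159 ALDHbr DMSO replicate 1 (0.49), and ALDH6A1 without SUM159 ALDHbr DMSO replicate 2 (0.58). The ALDH3A2 call was lost without SUM159 ALDHbr replicate 2 (-0.24), SW620 ALDHbr replicate 1 (-0.31) or 3 (-0.30), or SW620 ALDHneg replicate 2 (-0.30) or 3 (-0.30). ALDH18A1 stood at 0.01 (SE 0.0883, adjusted p = 1.00).

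Between the lines under DMSO the members were mostly higher in SW620. In ALDHbr cells 9 of 10 passed, all higher in SW620, against 81.3% of all genes in either direction (6437 higher, 6789 lower). In ALDHneg cells 8 of 10 passed, all higher, against 81.2% (6263 higher, 6941 lower). Apart from ALDH3A1, the largest difference was that of ALDH2, 79.7-fold in ALDHbr (log2 fold change 6.32, SE 0.136, adjusted p = 1.39e-22) and 48.9-fold in ALDHneg cells (5.61, SE 0.13, adjusted p = 5.31e-22) by edgeR. ALDH7A1 followed in ALDHbr cells, at 25.5-fold (4.67, SE 0.164), against 3.30-fold in ALDHneg cells (1.72, SE 0.131). ALDH4A1 was 6.01-fold and 3.72-fold higher, ALDH3B1 3.04-fold and 2.58-fold, ALDH3A2 2.65-fold and 3.27-fold, ALDH5A1 2.37-fold and 1.84-fold, and ALDH18A1 1.70-fold and 1.69-fold. ALDH6A1 was 1.79-fold higher in ALDHbr cells, and in ALDHneg cells its log2 fold change was 0.13 (SE 0.143, adjusted p = 0.391). ALDH9A1 did not pass in either population (0.10, SE 0.0642, and -0.03, SE 0.0642) and had 60.7 to 73.6 CPM in the 12 DMSO libraries of both lines. The median log2 fold change of the 10 members was 1.505 and 1.539, beside -0.05 and -0.07 over all genes tested. Scaling by plain library size in place of TMM moved the median of all genes by -0.15 in ALDHbr and -0.17 in ALDHneg cells. Under that scaling ALDH9A1 stood at -0.06 in ALDHbr cells (adjusted p = 0.402) and passed as lower in SW620 in ALDHneg cells (-0.20, adjusted p = 0.00541), and ALDH6A1 in ALDHneg cells turned to -0.04 (adjusted p = 0.832), all by edgeR.

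Of the other aldehyde dehydrogenases 1 of 2 tested passed in SW620 under NIF. ALDH16A1, which lacks a catalytic cysteine in mammals, rose by a log2 fold change of 0.23 (SE 0.0795, adjusted p = 0.0283) in ALDHbr and 0.28 (SE 0.0794, adjusted p = 0.0115) in ALDHneg cells, by edgeR. ALDH3B2 and ALDH8A1 stayed at or under 1.06 CPM. These counts stand beside 43.3% and 45.1% of all genes called in the ALDHbr and ALDHneg cells of SW620. Of the ALDH1 family, 3 of 3 genes tested fell in both SW620 populations, from -0.46 (SE 0.0475) for ALDH1A1 in ALDHbr cells to -1.89 (SE 0.0563) for ALDH1A3 in ALDHneg cells, and 0 of 5 tested passed in either SUM159 population, where 3.16% and 3.30% of all genes were called. Whether the family's response differs between the lines was not tested.

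The pathways in which these enzymes work were read by lists, each count of which stands beside the same shares of all genes called under NIF (43.3% and 45.1% in SW620, 3.16% and 3.30% in SUM159). In the proline and glutamate list, 5 of 12 genes tested rose and 1 fell in SW620 ALDHbr cells under NIF, and 5 rose and 2 fell in ALDHneg cells, with medians of 0.04 and 0.07, so that the share called lay near that of all genes. ARG2, the mitochondrial arginase, rose by 1.14 (SE 0.0961) and GLUL, glutamine synthetase, fell by 0.62 (SE 0.0526) on the log2 scale in ALDHneg cells. PYCR1, the reductase that takes the product of ALDH18A1 to proline, was named after its values were seen and stood at 0.61 in ALDHbr and 0.67 in ALDHneg cells (both called). In SUM159, 0 of 11 passed in ALDHbr cells and 2 of 11 rose in ALDHneg cells, among them P4HA1 (0.35, SE 0.0900).

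In the branched-chain amino acid list, to which ALDH6A1 belongs by function, 10 of 23 genes fell and 2 rose in SW620 ALDHbr cells, with a median of -0.19, and 9 fell and 2 rose in ALDHneg cells, with a median of -0.07. The share called was again near that of all genes. ACADSB, the acyl-CoA dehydrogenase of isoleucine breakdown, fell by 0.75 (SE 0.196) and BCKDHA, a subunit of the branched-chain ketoacid dehydrogenase, rose by 0.28 (SE 0.0595) in ALDHneg cells. In SUM159, 2 of 24 fell in ALDHbr cells, HIBADH among them (-0.23, SE 0.0582), and 1 in ALDHneg cells, MCCC1 (-0.31, SE 0.0631).

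The GABA shunt list, around ALDH5A1, gave 1 rise and 3 falls of 7 in SW620 ALDHbr and 1 rise and 4 falls in ALDHneg cells, with medians of -0.13 and -0.27. OGDH, a subunit of the oxoglutarate dehydrogenase complex, rose by 1.00 (SE 0.0489) in ALDHneg cells, and AKR7A2, which reduces succinate semialdehyde, fell by 0.43 (SE 0.0744) in ALDHbr cells. SUCLG2, a succinyl-CoA ligase subunit, was the 1 gene of 7 called in each SUM159 population, at -0.31 (SE 0.0598) in ALDHbr and -0.26 (SE 0.0597) in ALDHneg cells.

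The lysine, choline and carnitine list, around ALDH7A1 and ALDH9A1, gave 0 rises and 3 falls of 10 in SW620 ALDHbr and 1 rise and 2 falls in ALDHneg cells, with medians of -0.01 and -0.09. CHDH, choline dehydrogenase, fell by 0.74 (SE 0.0996) and TMLHE, the first enzyme of carnitine synthesis, rose by 0.19 (SE 0.0626) in ALDHneg cells. In SUM159 DHTKD1, of the lysine pathway, was the 1 of 10 called in ALDHbr cells (-0.55, SE 0.0918), and 0 of 10 were called in ALDHneg cells.

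Among genes of alcohol and lipid aldehydes, 6 of 18 rose and 8 fell in SW620 ALDHbr cells and 7 rose and 7 fell in ALDHneg cells, with medians of -0.03 and -0.09. AKR1B10, an aldo-keto reductase, rose by 1.98 (SE 0.0602) and DHRS2, a short-chain dehydrogenase, fell by 1.13 (SE 0.0972) in ALDHbr cells. In SUM159, CBR1 was the 1 of 16 called in ALDHbr cells (0.35, SE 0.0859), and 0 of 16 passed in ALDHneg cells. ALDH3A1 is a known target of the aryl hydrocarbon receptor and of NRF2. The list of their other targets also holds AHR, the receptor gene itself. It gave 10 rises and 2 falls of 13 in SW620 ALDHbr and 9 rises and 2 falls in ALDHneg cells. The medians were 1.38 and 1.36. The falls in SW620 ALDHbr cells were CYP1A1 (-2.08) and CYP1B1 (-1.69), while TIPARP rose (0.37). In SUM159 the list gave 7 rises and 3 falls of 13, and 6 rises and 3 falls, with medians of 0.40 in both. The falls there were CYP1A1, CYP1B1 and TIPARP in both populations, so each median pools genes that moved in opposite directions. CYP1B1 was near the floor in SUM159, with means of 0.538 CPM under DMSO and 0.0691 CPM under NIF in ALDHbr cells. In ALDHneg cells its means were 0.502 CPM under DMSO and 0.0969 CPM under NIF. SLC7A11 rose by 2.72 (SE 0.169) in SW620 ALDHbr cells and HMOX1 by 1.89 (SE 0.224) in SUM159 ALDHbr cells, while CYP1A1, the classical receptor target, fell by 2.57 (SE 0.181) in SW620 ALDHneg and by a log2 fold change of -3.63 (SE 0.444) in SUM159 ALDHbr cells.

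In the ATF4 list, genes of the amino acid stress response, 15 of 17 rose and 1 fell in SW620 ALDHbr cells and 16 rose and 1 fell in ALDHneg cells, with medians of 1.35 and 1.46. CHAC1 rose by 3.50 (SE 0.116) in SW620 ALDHbr cells, and ATF5 was the gene that fell, by 0.53 (SE 0.0660) in ALDHneg cells. In SUM159, 2 of 17 rose in ALDHbr and 3 in ALDHneg cells, CHAC1 (0.95, SE 0.220, in ALDHbr cells) and MTHFD2 (0.27, SE 0.0573, in ALDHneg cells) among them. All medians are of log2 fold changes of NIF against DMSO and stand beside medians within 0.00762 of 0 over all genes tested.

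Between the populations under DMSO, ALDHbr against ALDHneg, 23.0% of all genes were called in SUM159 and 11.3% in SW620. In SUM159, 4 of 24 branched-chain genes were lower and 1 higher, 3 of 10 lysine, choline and carnitine genes were lower and 0 higher, and 4 of 17 ATF4 targets were lower and 0 higher, shares near that of all genes. Of the ALDH1 family 2 of 5 were higher and 1 lower there. In SW620, 5 of 18 alcohol and lipid aldehyde genes were higher and 1 lower (median difference 0.20 on the log2 scale), and 3 of 23 branched-chain genes were higher and 0 lower.

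By likeness of log2 CPM over the 12 libraries of a line, the genes nearest to ALDH3B1 in SUM159 were RAB13 (Pearson r = 0.982), MCCC1 (0.973) and IDH2 (0.971). Among the nearest to ALDH3A2 there were FADS3 (0.942) and IDH3A (0.939). In SW620 the nearest to ALDH3B1 were CTSD (0.995), PPP1R18 (0.987) and SERPINA1 (0.985), and the nearest to ALDH18A1 were EPHB4 (0.991), CD24 (0.990) and TMEM238L (0.990). These were picked from 11613 genes in SUM159 and 11173 in SW620, and the 12 libraries share treatments and populations, so that the correlations describe a common pattern over 4 groups and carry no test.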

How the data were processed

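RNA of 24 libraries (SUM159 or SW620, ALDHbr or ALDHneg, NIF or DMSO, 3 each) was compared. The authors deposited raw whole-number counts of reads per gene for 28307 genes, without normalization. Their processing notes name FastQC, STAR and the GRCh38 build, whereas the counting tool, its strand setting and the annotation are not given in the sources used here. Libraries were Illumina stranded total RNA. Totals were 30253187 to 43127948 counts, and replicates differed by more than sampling noise (chi-square per gene 1.97 to 46.1 over 24 pairs).

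Counts were analysed with edgeR 4.0.16 in R 4.3.3 (filterByExpr by group, TMM, quasi-likelihood F test, two-sided, Benjamini-Hochberg over all genes tested, threshold 0.05). Each line was fitted on its 12 libraries in 4 groups, and comparisons of lines on all 24. Standard errors are the log2 fold change divided by the square root of F. CPM values use TMM sizes over all 24 libraries, and log2 CPM a prior count of 2. Lengths are those of MANE Select transcripts (GENCODE annotation lifted to GRCh37, used for length only); gene positions and promoters are from RefSeq GRCh38.p14. Steps were tested on simulated counts.

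The members, the pathway lists and the comparison of population differences between lines were chosen with earlier results of these data known. All members were named. Of each list the called genes with the highest and lowest log2 fold change per line were named (mean log2 CPM of at least 1), and of the 2 members with the highest and the lowest mean log2 fold change under NIF in each line the 3 most alike genes. Lists were Other aldehyde dehydrogenases, ALDH1 family, Proline and glutamate, GABA shunt, Branched-chain amino acids, Lysine, choline and carnitine, Alcohol and lipid aldehydes, AHR and NRF2 targets, ATF4 targets, and 2 marker lists.

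Same-numbered SUM159 libraries deviated together (correlation of deviations from group means 0.125 to 0.451, above 0.1 for each of 18 pairs), and the numbers were taken to pair them; the study describes 3 independent experiments. The values reported come from the fit without a replicate block, and for members the blocked value is given where it changed a call or a count. Counts of lists and markers and shares of all genes are given from the fit without the block only. In SUM159 the spread between the paired experiments therefore stays in the error of these tests. Alternatives were RLE size factors or plain library sizes in place of TMM, DESeq2 1.42.0, dropping the filter, at least 10 counts in every library, all 24 libraries, only the groups compared, a replicate block, and each library left out in turn. Some genes that the naming rule reached are not reported here.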

Additional observations from a re-analysis of the deposited data

Results flagged for a closer look

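These results drew attention because the same contrast differed between the 2 lines by a test of the difference itself (edgeR, 24 libraries, SW620 minus SUM159, log2 scale, adjusted over all genes). The response to NIF in ALDHbr cells differed for ALDH3B1 (0.93), ALDH9A1 (-0.27), ALDH18A1 (-0.63) and ALDH3A1 (6.58). The response in ALDHneg cells differed for ALDH3A2 (-0.30), ALDH3B1 (1.07), ALDH9A1 (-0.33) and ALDH18A1 (-0.59).

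The gap between ALDHbr and ALDHneg cells under DMSO differed for ALDH2 (0.70), ALDH3A2 (-0.30), ALDH4A1 (0.69), ALDH6A1 (0.71), ALDH7A1 (2.95) and ALDH3A1 (-4.21), in the comparison added after the values were seen. Both ALDH3A1 values rest on 26 counts in SUM159 ALDHbr DMSO replicate 3, depend on the prior count and bound nothing. Without that library the response difference was 0.42 (adjusted p = 1.00) and the population difference 1.94 (adjusted p = 0.576).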

How the results depend on the processing

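Of 928 alternative values for 64 called member values, 838 kept direction and call, 89 lost the call and 1 reversed. The reversed value was the difference of population gaps between the lines for ALDH3A1, which ran from -6.04 to 1.94 when each library was left out, the positive value being that without SUM159 ALDHbr DMSO replicate 3. In SUM159 the replicate block gave 2 members called under NIF in ALDHbr and 2 in ALDHneg cells, in place of 1 each, and otherwise added only the calls given in the report. Leaving out each library gave 0 to 1 members called under NIF in SUM159 ALDHbr cells, 4 to 7 in SW620 ALDHbr cells, 2 to 5 between the SW620 populations under DMSO, 2 to 4 between them under NIF, and 3 to 6 for the difference of population gaps. Only the groups compared left 4 members called under NIF in SW620 ALDHbr cells. Between the SW620 populations under NIF no filter gave 3, the replicate block 3 and all 24 libraries 1 in place of 5. SW620 numbers were taken as unpaired, since 1 of 18 same-numbered pairs passed 0.1 (-0.278 to 0.214). Of 36 differently numbered SW620 pairs 3 passed 0.1 (-0.410 to 0.3945), the highest being ALDHbr NIF replicate 1 with ALDHbr DMSO replicate 2. Whether SW620 libraries pair under other numbers was not tested. The cause of the changes in the counts of members called was not tested. At least 10 counts in every library left ALDH3A1 without a value in comparisons of lines. Depth limits ALDH3A1 most in SUM159, where it had 0 counts in 9 of 12 libraries and was not tested, and then ALDH2, ALDH5A1, ALDH6A1 and ALDH7A1, which had 43, 105, 109 and 62 counts in their lowest library.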
